A study of Mus musculus with 2 samples.

Results

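The adhesion molecules examined here are 8 surface proteins that do not belong to the integrin family: Selplg, Spn, Cd44, Cd2, Emb, Ncam1, Icam1 and Icam2. They were chosen by gene symbol, as every probe set annotated to exactly 1 of these symbols. That gave 20 of the 34958 probe sets with a single symbol, and 8 of 18194 named genes. The arrays carried RNA from natural killer (NK) cells of the liver of naive wild-type B6 mice. Each sort kept NK1.1+ CD3- cells, and the DX5 antibody, which recognises the integrin alpha 2 chain, divided them into a DX5-NK1.1+CD3- population and a matching DX5+NK1.1+CD3- population. Each population was measured on 1 Affymetrix expression array, so no value has a spread between samples and no difference was tested. The sources used here do not give the age, sex or number of mice, or whether animals were pooled.

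Lymphocytes in the liver meet blood flow in the sinusoids, and surface glycoproteins help to decide which cells they can hold on to. Sialomucins such as PSGL-1 (Selplg) and CD43 (Spn) are long, heavily O-glycosylated stalks; PSGL-1 binds selectins and so lets leukocytes tether and roll. CD44 binds the matrix sugar hyaluronan, which is abundant in liver sinusoids. ICAM-1 and ICAM-2 are immunoglobulin-domain ligands of the leukocyte integrin LFA-1, and CD2 binds CD48 on a neighbouring cell and adds to the activation of NK and T cells.

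Across the 8 genes, Cd2 was 2.81-fold lower in DX5- than in DX5+ cells, Spn was 1.67-fold lower, and Icam1 was 1.55-fold higher. Selplg, Emb and Icam2 were lower by 1.43-fold, 1.36-fold and 1.25-fold, and Cd44 was nearest to equal, with a log2 ratio of -0.14. Ncam1 was below the detection limit on both arrays. These folds compare the deposited linear intensities of the brightest probe set of each gene. The limit (76.3 units for DX5-, 80.2 for DX5+) is set on each array so that 95% of the probe sets of gene families not thought to be used by lymphocytes or liver lie below it. Of the 7 detected genes 1 (14.3%) was lower in DX5- cells by 2-fold or more and 0 were higher by that much. Over all 10705 detected genes 5.62% were lower and 3.77% higher by 2-fold or more, and a single gene is too few to read against that background. Counted by probe set, 2 of the 12 detected, 1 each of Cd2 and Spn, were lower by 2-fold or more and 0 higher, against 5.34% lower and 3.61% higher among all detected probe sets. The median log2 ratio (DX5- minus DX5+) was -0.44 for the 7 detected members and -0.020 for all detected genes.

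**Figure D1:**
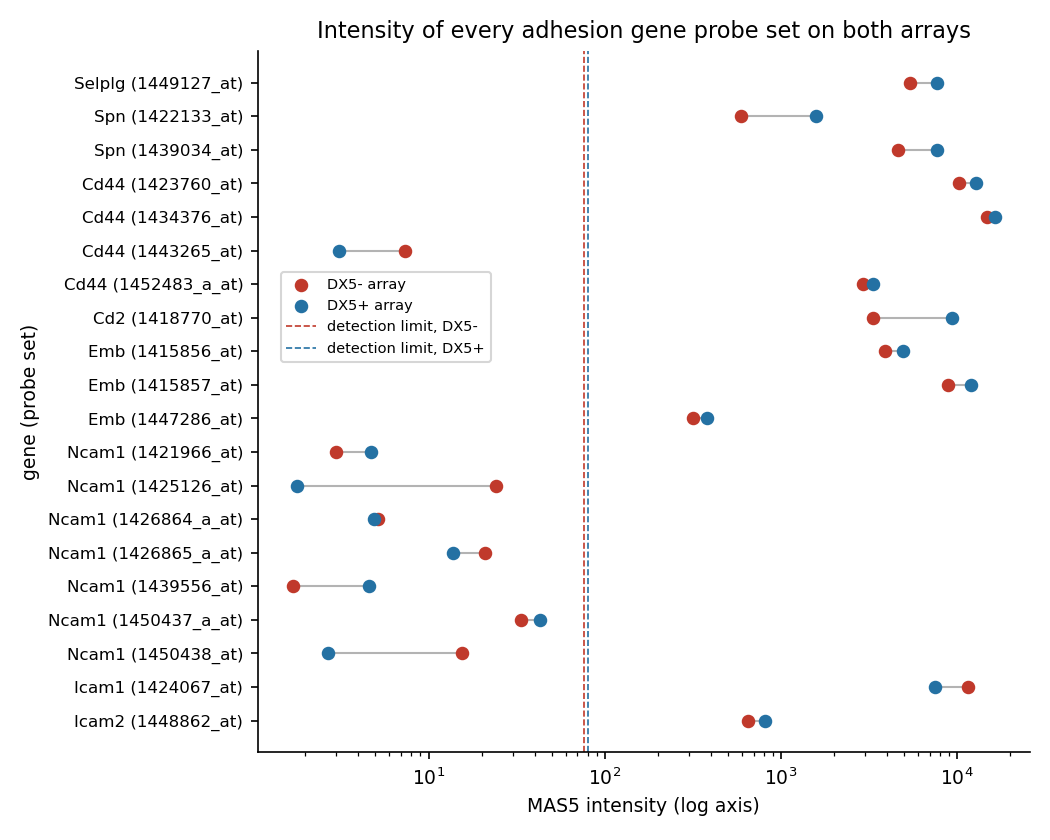
MAS5 intensity (log axis) of each of the 20 probe sets in DX5- (red) and DX5+ cells (blue), joined by a grey line, with the detection limits dashed. Each point is 1 array. The blue point lies to the right in 11 of the 12 probe sets above the limits, Icam1 is the exception, and all 7 Ncam1 probe sets lie left of the limits.

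RefSeq promoter sequences (GRCm38.p6) were listed for 4 of the 8 genes, Spn, Cd44, Emb and Icam1, and not for Selplg, Cd2, Ncam1 and Icam2. The 250 bases before the annotated start are shown for Icam1, the member that was higher in DX5- cells, and for Emb, a member that was lower with all 3 of its probe sets. The Icam1 window is chr9:21015690-21015939 on the + strand, and the Emb window is chr13:117220323-117220572 on the + strand. Capitals mark matches to the motifs searched.
Icam1: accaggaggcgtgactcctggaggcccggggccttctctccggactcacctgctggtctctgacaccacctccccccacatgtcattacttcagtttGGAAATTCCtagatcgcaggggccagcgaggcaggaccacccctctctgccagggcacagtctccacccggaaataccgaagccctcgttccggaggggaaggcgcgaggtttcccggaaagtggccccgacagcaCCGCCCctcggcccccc
Emb: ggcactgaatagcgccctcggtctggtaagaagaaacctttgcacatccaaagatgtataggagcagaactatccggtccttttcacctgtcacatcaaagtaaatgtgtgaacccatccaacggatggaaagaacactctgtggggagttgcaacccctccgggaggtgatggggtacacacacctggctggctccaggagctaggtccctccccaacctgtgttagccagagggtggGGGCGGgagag

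The motifs searched, on both strands, were GGAAATTCC (the NF-kB site known from the human ICAM1 promoter), AGGTGTGA (T-box factors), CCGGAAGT (ETS factors), TGTGGT (RUNX factors) and GGGCGG (the GC box). The Icam1 window held the NF-kB letters, with the first base at position -153 from the start, and a GC box on the opposite strand at -17. The NF-kB letters were present in 0.286% of 32851 promoter windows of the same length, and the GC box in 32.7%. The NF-kB letters came from the human ICAM1 promoter, so their rate does not tell how unusual a match in mouse Icam1 is. Emb held a GC box at -11, and the windows of Spn and Cd44 held none of the 5 motifs. The T-box letters were present in 1.12%, the ETS letters in 2.88% and the RUNX letters in 14.0% of all windows. GC content was 65.2% in the Icam1 window, with 15 CG dinucleotides, and 54.8% in the Emb window, with 6. The median window had a GC content of 52.4%. A match says that the letters are present in this window, and does not show that a factor binds there.

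Selplg, which encodes PSGL-1, read 5410.5 in DX5- and 7738 in DX5+ cells. The log2 ratio was -0.52, and 16.5% of detected genes had a lower one. A single probe set reports this gene. Spn, which encodes CD43, was reported by 2 probe sets. The brighter read 4594.5 in DX5- and 7693 in DX5+ cells (log2 ratio -0.74), and the dimmer read 593.8 and 1580 (log2 ratio -1.41). Both were lower in DX5- cells, but they differed in size: 1.67-fold by the brighter and 2.66-fold by the dimmer probe set. When the log2 intensities of both were averaged, Spn was 2.11-fold lower and became the second member past 2-fold. A pseudogene of Spn (Spn-ps) has its own probe set, which read 15.4 and 5.7, below the limits on both arrays.

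Cd44, the hyaluronan receptor, had 4 probe sets, of which 3 were above the limits. The brightest read 14870.3 in DX5- and 16349 in DX5+ cells. Another read 10306 and 12788, and the dimmest of the 3 read 2922 and 3347. All 3 were lower in DX5- cells, with log2 ratios of -0.14, -0.31 and -0.20. The fourth read 7.4 and 3.1, below the limits. The direction of Cd44 depended on the processing: its log2 ratio was -0.14 as deposited, 0.081 when the arrays were centred on the hybridisation spike-in controls, and 0.15 when all 4 probe sets were averaged. The last value is carried by the probe set below the limits; over the 3 detected probe sets, an alternative chosen after seeing the data, the mean was -0.21. Of the detected members Cd44 had the ratio nearest to 0.

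Cd2 had the largest difference of the 7 detected genes, each taken at its brightest probe set. It read 3323 in DX5- and 9344 in DX5+ cells, a log2 ratio of -1.49. Of the 10705 detected genes 238, or 2.22%, had a lower ratio. The spread of log2 ratios between probe sets of the same gene, measured over 4412 genes with at least 2 detected probe sets, had an SD of 0.34, and of 0.24 among the brightest of those genes. That spread covers probe noise and leaves out differences between sorts, labellings and mice; the Cd2 ratio was 4.37 times the SD of 0.34. A single probe set reports Cd2, so no other probes check it. Cd48, whose product is the ligand of CD2 in mice, went the other way, with 2644 in DX5- and 1708 in DX5+ cells (1.55-fold higher). Fyn, a Src-family kinase that acts below CD2 and other receptors, read 5129 and 8696 (1.70-fold lower), and Pstpip1, which encodes an adaptor that binds the CD2 tail, read 2330 and 1334 (1.75-fold higher). A dimmer Fyn probe set read 2577 and 5497 (2.13-fold lower). Fyn and Pstpip1 were singled out after their values were seen.

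Emb encodes embigin, an immunoglobulin-superfamily glycoprotein that escorts monocarboxylate transporters to the cell surface. Its probe sets read 8846 and 12014, 3903 and 4937, and 317.5 and 381.0, with the DX5- value first. All 3 were lower in DX5- cells, by 1.36-fold, 1.26-fold and 1.20-fold, so the probe sets lay close to each other over a wide range of brightness. The related genes Bsg (basigin) and Nptn (neuroplastin), which make the same small family with Emb, are given for comparison. Bsg read 1239 and 1356. The probe sets of Nptn read 10122 and 10911, and 704.3 and 995.7 (1.41-fold lower), so they differed from each other by more than those of Emb.

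Ncam1 encodes NCAM, the CD56 antigen used to define human NK cells, which mouse NK cells are not known to carry. Its 7 probe sets read from 1.7 to 33.6 in DX5- and from 1.8 to 43.2 in DX5+ cells. All 14 values were under the limits, so no fold is given and no order is read from them. St8sia4, which encodes a polysialyltransferase that modifies NCAM and other proteins, was detected, at 4134 in DX5- and 2229 in DX5+ cells (1.85-fold higher); it was singled out after its values were seen.

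Icam1 read 11590 in DX5- and 7495 in DX5+ cells, a log2 ratio of 0.63. It was the only detected member with a higher value in DX5- cells as deposited, and 9.62% of detected genes had a higher ratio. Icam2 read 646.5 and 807.7, a log2 ratio of -0.32, so the ICAM genes lay on opposite sides of 0 and their log2 ratios were 0.95 apart. A single probe set reports each of them. Of the chains of their receptor LFA-1, Itgal read 12756 and 11734 (1.09-fold higher in DX5- cells). Itgb2 read 9640 and 11815 (1.23-fold lower), a difference of similar size to that of Icam2 (1.25-fold). Itgam, the alpha chain of Mac-1, which also binds ICAM-1, read 134.9 and 772.8, or 5.73-fold lower in DX5- cells.

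**Figure D2:**
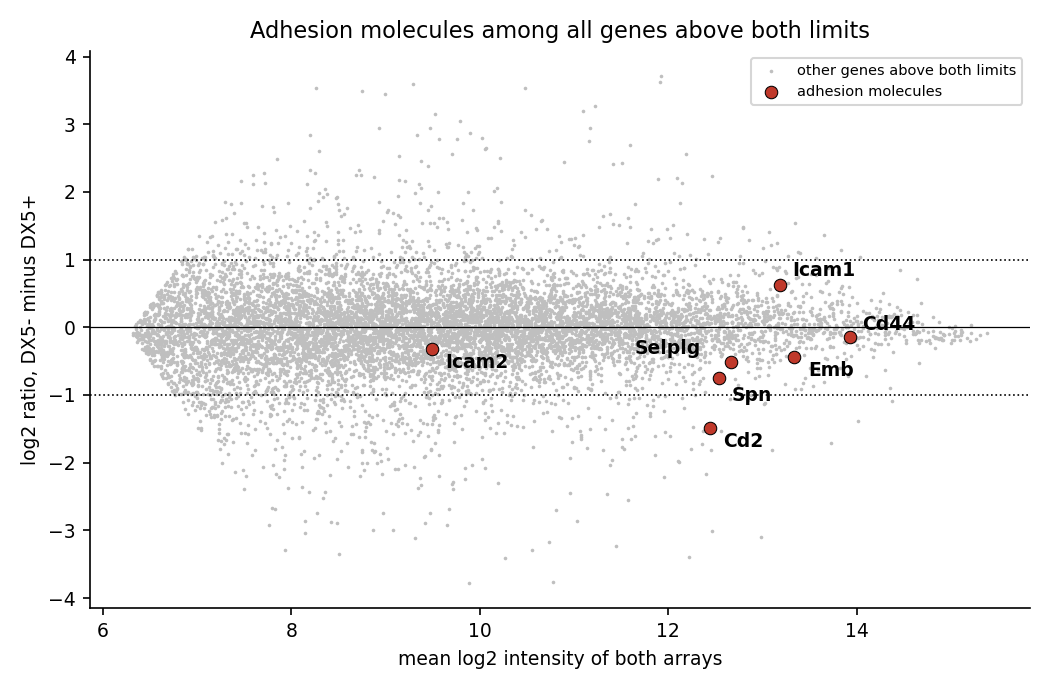
Log2 ratio (DX5- minus DX5+) against mean log2 intensity for genes above both limits (grey) and the 7 detected adhesion molecules (red), with 2-fold marked by dotted lines. Each point is 1 gene from 1 array per population. Cd2 lies below the lower line at -1.49, Icam1 lies above 0 at 0.63, and the other members lie between -0.74 and -0.14.

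The scale between the arrays bears on every ratio, since all 18 hybridisation spike-in controls read lower for DX5- (median log2 ratio -0.22). Centring on them raised every ratio by that amount: Cd2 became -1.27, Spn -0.53, Selplg -0.30, Emb -0.22, Icam2 -0.10 and Icam1 0.85. Over all detected genes, 40.2% of those past 2-fold were higher in DX5- cells as deposited and 64.3% with spike-in centring. Cd2 stayed past 2-fold and lower under all 10 alternatives, with log2 ratios from -1.55 to -1.27, and Icam1 stayed between 0.56 and 0.85. Selplg, Spn, Emb and Icam2 kept a negative ratio under all 10.

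**Figure D3:**
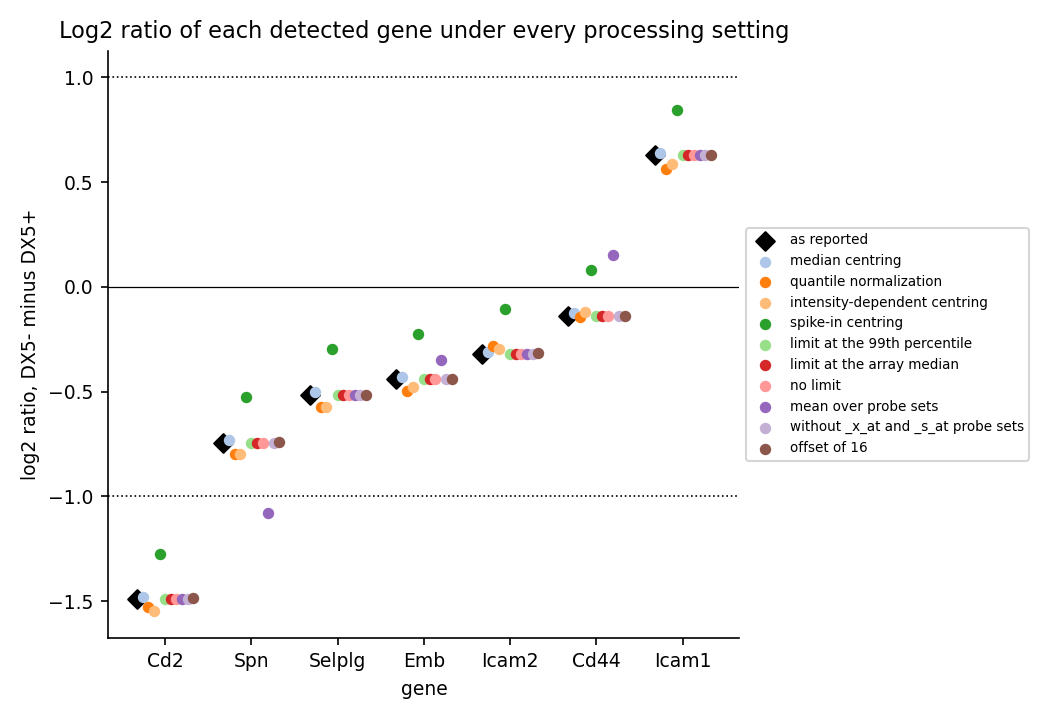
Log2 ratio (DX5- minus DX5+) of each detected adhesion molecule as reported (black diamonds) and under 10 alternative settings (coloured circles); dotted lines mark 2-fold. Cd44 crosses 0 under spike-in centring and under the mean over probe sets, where a probe set below the limits enters, and Spn passes the lower dotted line under the mean over probe sets, at -1.08.

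The partners of these molecules were described from 8 lists of 101 genes, of which 94 had a probe set of their own and 73 were detected. For comparison, the median log2 ratio of all detected genes was -0.020. Of the 73, DX5- cells had 6 lower (8.22%) and 2 higher (2.74%) by 2-fold or more, near the 5.62% and 3.77% of all detected genes. Of the selectins, the receptors for PSGL-1, Selp (P-selectin) read 99.5 in DX5- and 368.1 in DX5+ cells, and Sele (E-selectin) read 37.6, below the limit, and 328.9, at least 4.31-fold lower. Of the genes that build selectin-binding glycans 17 of 20 were detected, 1 of them lower and 0 higher by 2-fold or more. Their median log2 ratio was 0.075, or 0.29 with spike-in centring. St3gal1, a sialyltransferase that caps O-glycans, was the gene past 2-fold, at 99.2 and 213.9. The count of lower genes here was 0 under 4 of the 10 alternatives: quantile normalization, spike-in centring, the stricter limit and the offset. The count of higher genes moved to 1 with quantile normalization, intensity-dependent centring, spike-in centring, no limit and the mean over probe sets. Neither count is stable. Gcnt1, which makes the branched core that carries selectin ligands, read 851.9 and 856.6, and Fut7, the fucosyltransferase that completes them, was below the limits at 28.8 and 39.1.

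Other sialomucins had 5 of 10 genes detected and 0 past 2-fold. Their median was -0.42, which was the bound of a gene below the limit in DX5- cells. It was -0.21 under the stricter limit (99th percentile) and -0.20 with spike-in centring. The list of receptors and activators for the ICAMs had 11 of 11 detected, with Itgam the 1 gene past 2-fold and a median of -0.028, or 0.19 with spike-in centring. Among other immunoglobulin-superfamily genes 16 of 20 were detected, and their median was -0.048, or 0.14 with spike-in centring. Mcam (4.19-fold) and Crtam (2.93-fold), which encodes a receptor for the nectin-like protein Necl-2, were lower in DX5- cells, and Cd96, a receptor for CD155, was 2.97-fold higher. The count of higher genes in the immunoglobulin-superfamily list was 1 as deposited. It was 2 with quantile normalization, intensity-dependent centring, spike-in centring and the mean over probe sets, and 3 with no limit. The hyaluronan and CD44 partners had 5 of 10 detected and 0 past 2-fold. The polysialylation and NCAM list had 4 of 7 detected and likewise 0 past 2-fold as deposited, with 1 higher under spike-in centring. Its median was -0.53, but 0.065 under a stricter limit (99th percentile). Of the linkers that tie these tails to actin 13 of 14 were detected and Sh3kbp1, an adaptor that binds the CD2-associated protein, was the 1 gene past 2-fold (2.05-fold higher; under 2-fold with the mean over its 4 probe sets, of which 1 was 1.14-fold lower). With spike-in centring 2 linker genes were higher by 2-fold or more. Ezr (ezrin) read 16050.4 and 15122, and Msn (moesin) read 11298 and 14184.

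**Figure D4:**
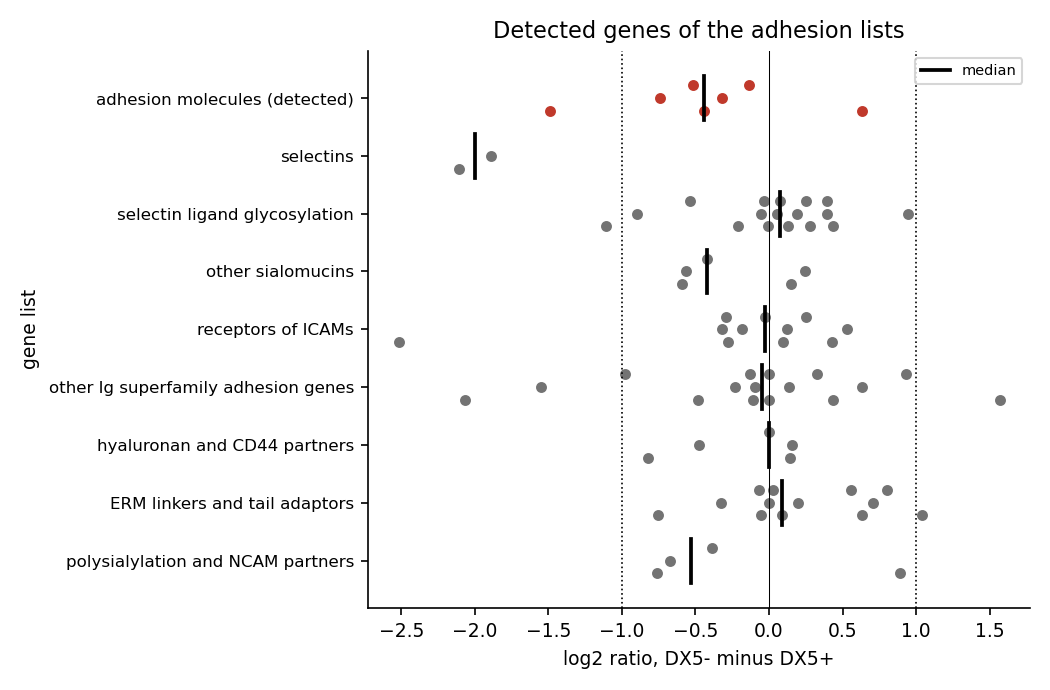
Log2 ratio (DX5- minus DX5+) of the detected adhesion molecules (red) and of the detected genes of 8 partner lists (grey), 1 point per gene, with medians as black bars and 2-fold as dotted lines; a gene below the limit on 1 array is drawn at its bound. The members' median is -0.44, the value of Emb, which is -0.22 with spike-in centring. The lists of glycan, ICAM receptor and linker genes have medians of 0.075, -0.028 and 0.086 (0.29, 0.19 and 0.30 with spike-in centring). The selectin median of -2.00 (-1.78 with spike-in centring) rests on 2 genes.

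The cells were checked against markers of NK cells and of other cells. Of 11 NK cell genes on the array 11 were detected, and 2 of them, Eomes and Prf1, were lower in DX5- cells by 2-fold or more (summed 152948 against 165501). All 5 genes of liver resident NK cells were higher by 2-fold or more (summed 17492 against 2060.5). Itga2, the target of DX5, read 29.0 in DX5- and 105 in DX5+ cells. All 8 platelet genes were detected and lower in DX5- cells by 2-fold or more, with a summed intensity of 1229.5 against 6143; Selp is among them, and Icam2 is also known from platelets and endothelium. Of 11 endothelial genes 5 were detected and 0 were past 2-fold (summed 1261 against 1579, median log2 ratio -0.675). Pecam1 (834.7 and 892.2) made up most of the sum, and it and Kdr (112.3 and 114.7) were near equal. Stab2 (80.5 and 151.0), Vwf (19.9 and 141.4) and Egfl7 (75.8 and 121.8) were lower in DX5- cells. Vwf and Egfl7 were below the DX5- limit, and another Egfl7 probe set read 90.6 and 60.1. Tie1, Cdh5, Tek, Lyve1, Emcn and Clec4g were below the limits on both arrays. Of 9 T cell genes 8 were detected, with 4 higher and 0 lower in DX5- cells by 2-fold or more (summed 25296 against 10792). Those 4 were Cd3d, Cd3e, Cd3g and Cd8a, and Cd3g (14035.8 and 1071.8) carried most of the difference in the sum. Cd5 and Cd6 were higher by less than 2-fold, and Cd28 read 7668 and 8442. Cd8b1 was above the limit in DX5+ cells only (29.6 and 104.2), and Cd4 was below the limits. T cells also carry Cd2. Neutrophil genes (3 of 5 detected past 2-fold, summed 3704 against 9562) were lower in DX5- cells. Of 11 macrophage genes 5 were detected and lower in DX5- cells, 4 of them by 2-fold or more (summed 1208 against 4086). Clec4f, Timd4, Marco, C1qa, C1qb and C1qc were below the limits. Csf1r rested on a probe set below the DX5- limit (75.9 and 232.7), and its others read 111.6 and 129.5, and 95.6 and 21.8. Neutrophils and macrophages also carry Selplg and Spn. Such pairings of members with cell types were not made for all members, and no match of directions is read from them. The part of these cells in the members' ratios was not tested, and in sorted bulk RNA fewer cells of a type and less RNA per cell cannot be told apart.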

How the data were processed

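The deposited table gives 1 intensity per probe set and array, on a linear scale, for 45101 probe sets. The authors made these values with MAS5, per the submitters' processing notes; the sources used here do not give its version or settings, and the table holds no detection calls. Each population has 1 array, which limits the precision, and no test was made. Probe sets were named from the platform annotation: 34958 had 1 symbol, 932 had several and were not used, and 9211 had none. A gene is represented by the probe set that is brightest on average (log2) over both arrays. The detection limit came from 145 probe sets (taste, vomeronasal and olfactory receptors, opsins, lens crystallins and keratin-associated proteins). A value under the limit on 1 array was set to that limit, and the fold is then a lower bound; under both limits no fold is given. Genes 2-fold or more apart are counted to describe the arrays. The steps ran in Python 3.11.15 with pandas 2.3.3 and numpy 2.4.6 and were tested on simulated data. Members and lists were chosen with earlier results of these data known. Named genes were all members, up to 4 genes past 2-fold per partner list, 10 further partner genes, and the gene nearest to each member in log2 intensity on both arrays. Genes named from the marker lists, Itga2 and Spn-ps fall outside this rule. Other genes outside it are marked. Alternatives were 4 scalings, 3 detection limits, 2 choices of probe sets and an offset of 16.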

Additional observations from a re-analysis of the deposited data

How the results depend on the processing

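Cd2, the member past 2-fold, and the selectin median kept their sign under all 10 alternatives; Cd44 was negative under 8 and positive under 2. The count of members lower in DX5- cells by 2-fold or more was 1 under 9 of them and 2 with the mean over probe sets, where Spn was added by construction, since its dimmer probe set has the larger ratio. The count of members higher by that much was 0 under all 10. Over all detected genes, spike-in centring gave 708 higher and 393 lower by 2-fold or more, against 404 and 602 as deposited, and leaving out the detection limit gave 1888 and 2838, because dim probe sets then enter. No replicate could be left out. No paired analysis was possible because each population has 1 array. The depth of an array cannot be read from these intensities; Selp on the DX5- array, at 99.5 against a limit of 76.3, and Itga2 lay near or below the limit, where ratios are least certain.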

Other observations

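For each detected member the gene nearest to it in log2 intensity on both arrays was looked up among the 10705 detected genes. With 1 array per population this likeness rests on 2 values per gene. Cd2 lay nearest to Prf1, the perforin gene, which read 3108 in DX5- and 8978 in DX5+ cells. Icam1 lay nearest to Zc3hav1 (11323 and 7546), Selplg to Clic4 (5848 and 7693), Spn to Gpr171 (4637 and 6600.5), Emb to Limd2 (8626 and 11751), Cd44 to Plekha2 (15021 and 16404) and Icam2 to Twsg1 (644.4 and 798.5).

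Several linkers of the cytoplasmic tails lay between 1.4-fold and 2-fold higher in DX5- cells and were singled out after their values were seen. Rdx (radixin) read 2934.5 and 1989, Slk, a kinase that phosphorylates ezrin, radixin and moesin, read 5832 and 3577, and Snx20, a sorting nexin that binds the PSGL-1 tail, read 645.7 and 416.7. In the same list Cd2ap, the CD2-associated protein gene, read 120.2 and 202.5 (1.68-fold lower). The list median was 0.086, or 0.30 with spike-in centring. Cd47, a broadly expressed immunoglobulin-superfamily protein, had 5 probe sets, all lower in DX5- cells, from 1.34-fold to 2.30-fold. The brightest read 7895 and 11040 (1.40-fold lower). The next brightest read 3539 and 7345 (2.08-fold lower), and 3428.5 and 6829 (1.99-fold lower). The one at 2.30-fold read 83.4 in DX5- cells, near the limit. Cd2ap and Cd47 were also singled out after their values were seen.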
